A study of Mus musculus with 6 samples.

Results

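The genes described here are 10 rows of the deposited count table, of 55349 rows in all. They encode chaperones and folding helpers of the endoplasmic reticulum (ER) together with the transcription factor XBP1, and they were chosen by their gene symbols: Hspa5, Hsp90b1, Calr, Pdia4, Dnajb9, Sdf2l1, Manf, Creld2, Herpud1 and Xbp1. Each symbol matched 1 row, and all 10 were among the 13268 genes that passed a filter on low counts. Expression was measured by RNA sequencing in 6 subcutaneous tumours of B16F10, a pigmented mouse melanoma line. In 3 libraries the tumour cells carried a short hairpin RNA against squalene epoxidase (labelled shSQLE, genotype SQLE knockdown, replicates 1, 2 and 5), and in 3 they carried a control hairpin (labelled shControl, genotype WT, replicates 1, 4 and 5). The labels give no treatment for either group, and state neither the age or strain of the host mice nor the number of hairpins or clones. Whether replicates come from separate animals is not stated, so a p-value here reflects variation between libraries, which may not be variation between animals.

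Secretory and membrane proteins fold in the ER lumen, where Hsp70 and Hsp90 chaperones, lectin chaperones and disulfide isomerases act on them. When unfolded proteins build up, the unfolded protein response is set off by 3 sensors in the ER membrane, IRE1 (gene Ern1), ATF6 and PERK (gene Eif2ak3). IRE1 splices the Xbp1 mRNA, and the XBP1 protein made from the spliced form, together with cleaved ATF6, induces chaperones, folding enzymes and parts of ER-associated degradation (ERAD), which removes misfolded proteins. The counts add all transcripts of a gene, so spliced and unspliced Xbp1 mRNA were not measured apart. Sqle, the targeted gene, encodes an ER membrane enzyme of cholesterol synthesis.

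A short promoter element, the ER stress response element (ERSE), is the textbook link between these genes, so the promoters that hold a match to it are shown. RefSeq promoters of build GRCm38.p6 were at hand for 9 of the 10 genes, all but Manf, and the 250 bases before the annotated start were searched on both strands. The motifs were ERSE (CCAAT, any 9 bases, then CCACG), ERSE-II (ATTGG, any 1 base, then CCACG) and the unfolded protein response element UPRE (TGACGTGG), and no matches overlapped each other. ERSE matched in Hspa5, Hsp90b1, Calr and Creld2, which is 4 of 9 promoters against 0.113% of 32851 promoters of the same length. Hsp90b1 held a match on each strand. ERSE-II matched in Herpud1 alone among the 9, against 0.0304% of all promoters, and UPRE matched in none of the 9 against 0.563% of all. Only exact matches were counted, so an element that differs from a motif by a base is not marked. On either strand, CCAAT occurred in 8 of the 9 promoters, against 33.8% of all, and CCACG in 7 of 9, against 28.3%. A match is a description of the sequence and shows no binding. Capitals mark the fixed letters of a match in the sequences, which run 5′ to 3′ on the strand of the gene.
Hspa5, chr2:34771840-34772089, plus strand: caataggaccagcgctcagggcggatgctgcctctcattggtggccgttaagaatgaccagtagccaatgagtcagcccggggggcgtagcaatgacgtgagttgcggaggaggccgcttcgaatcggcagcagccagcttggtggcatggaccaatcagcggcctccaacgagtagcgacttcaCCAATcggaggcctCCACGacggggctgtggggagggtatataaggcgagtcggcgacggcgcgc
Hsp90b1, chr10:86705445-86705694, minus strand: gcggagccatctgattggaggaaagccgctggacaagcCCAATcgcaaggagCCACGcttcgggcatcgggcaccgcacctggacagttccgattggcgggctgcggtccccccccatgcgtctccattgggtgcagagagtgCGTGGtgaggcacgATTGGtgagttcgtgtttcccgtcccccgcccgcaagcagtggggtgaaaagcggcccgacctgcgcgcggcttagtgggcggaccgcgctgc
Calr, chr8:84846932-84847181, minus strand: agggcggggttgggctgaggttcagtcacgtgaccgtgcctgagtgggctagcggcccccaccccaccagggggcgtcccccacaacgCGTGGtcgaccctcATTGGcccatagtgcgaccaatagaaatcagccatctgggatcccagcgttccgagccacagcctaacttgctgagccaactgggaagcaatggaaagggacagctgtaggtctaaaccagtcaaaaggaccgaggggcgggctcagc
Creld2, chr15:88819396-88819645, plus strand: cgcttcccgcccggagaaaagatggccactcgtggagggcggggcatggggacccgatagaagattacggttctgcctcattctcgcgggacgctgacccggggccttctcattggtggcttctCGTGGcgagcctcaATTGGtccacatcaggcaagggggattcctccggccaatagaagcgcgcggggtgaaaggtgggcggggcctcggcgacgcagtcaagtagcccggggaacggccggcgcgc
Herpud1, chr8:94386179-94386428, plus strand: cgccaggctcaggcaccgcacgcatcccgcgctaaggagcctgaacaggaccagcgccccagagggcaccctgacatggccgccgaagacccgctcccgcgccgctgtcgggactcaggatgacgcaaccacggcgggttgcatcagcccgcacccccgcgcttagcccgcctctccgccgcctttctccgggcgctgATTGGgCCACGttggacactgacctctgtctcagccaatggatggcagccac

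The match lies close to the start in Hspa5, from base 65 to base 47 before it, and in Herpud1, from base 52 to base 42. It lies farther out in Creld2, from base 126 to base 108, and in Calr, from base 162 to base 144. In Hsp90b1 the matches run from base 107 to base 89 and from base 212 to base 194.

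The knockdown was visible in the libraries. Sqle stood at 70.4, 66.8 and 77.1 CPM (counts scaled to library size with TMM factors) in shSQLE replicates 1, 2 and 5 and at 146, 151 and 148 CPM in shControl replicates 1, 4 and 5, or 48.2% of the control level. Its log2 fold change in edgeR was -1.05 (SE 0.17) with an unadjusted p of 0.000173 and an adjusted p of 0.9996, so edgeR did not call it, whereas DESeq2 did (adjusted p = 8.84e-05). Library totals ranged from 16408622 to 19142185 expected counts, and the 10 genes took 0.257% to 0.386% of a library. Melanocyte markers were high in every library, with 12 of 12 tested and summed levels of 20485 to 25583 CPM in shSQLE and 16293 to 20422 CPM in shControl. The lowest shSQLE sum thus lay narrowly above the highest shControl sum. In shSQLE the fitted level was higher for 9 of the 12 and lower for 3, where 47.4% of all tested genes were higher. The groups overlapped for each marker taken alone, and edgeR called 0 of them. Their part in the levels of the 10 genes was not tested. Each library mixes tumour and host RNA, and fewer cells of a type cannot be told apart from less RNA per cell.

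No difference between shSQLE and shControl tumours beyond the spread between libraries was found for any of the 10 genes. The edgeR test called no gene of the table, Sqle included. Of the 10, 7 had a higher fitted level in shSQLE and Hspa5, Hsp90b1 and Dnajb9 a lower one, with log2 fold changes from -0.21 (Hspa5) to 0.28 (Sdf2l1), and the groups overlapped for all 10. By edgeR (quasi-likelihood, Benjamini-Hochberg adjusted p under 0.05) 0 of 10 were called, where 0% of all 13268 tested genes were called. At an unadjusted p under 0.05 the count was again 0 of 10, against 3.11% of all genes (1.49% higher and 1.62% lower), and the smallest p was 0.26. DESeq2 called 0 of 10, against 0.0453% of all genes. Groups did not overlap for 6.44% of all tested genes, 3.1% higher and 3.35% lower in shSQLE, against 0 of the 10. With shares of calls and of non-overlap this low, a count of 0 among 10 genes does not set them apart from other genes. A fold change above 0 was found for 47.4% of all tested genes, beside 7 of the 10, and this difference was not tested.

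The 95% confidence intervals show which sizes of change the data allow. All 10 held 0, and together they ran from 0.514-fold (Dnajb9) to 1.77-fold (Sdf2l1). The narrowest was that of Xbp1, from -0.21 to 0.58 on the log2 scale, and Dnajb9 had the widest, from -0.96 to 0.65. For 7 of the 10 the fold change was smaller than its own SE. Leaving out shSQLE replicate 1 gave 31 calls over all genes in place of 0, with 0 of the 10 genes among them.

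**Figure D1:**
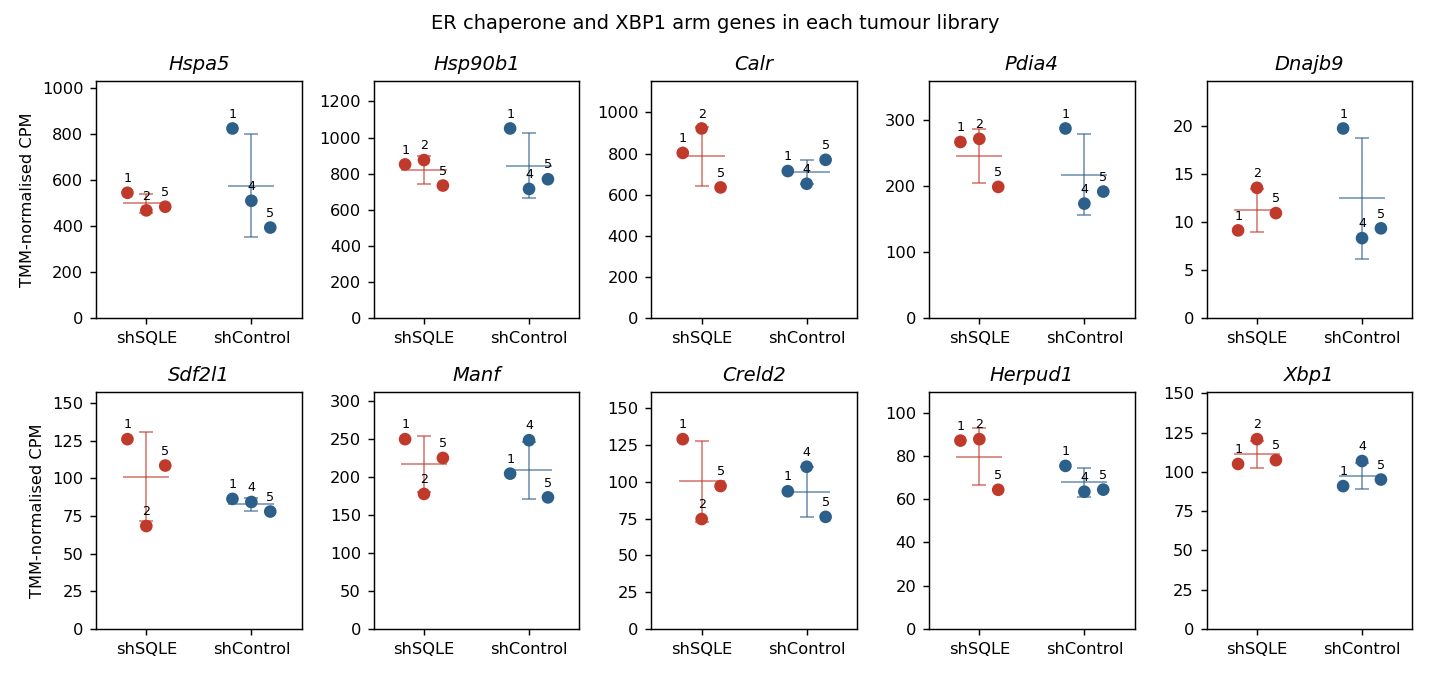
TMM-normalised CPM of each of the 10 genes in the 6 libraries, with shSQLE in red and shControl in blue; small numbers are replicates, and bars are the mean with its SD (n = 3). Each vertical axis starts at 0. Points of both groups overlap in every panel, and shControl replicate 1 is the highest point for Hspa5, Hsp90b1, Pdia4 and Dnajb9.

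Hspa5 (ENSMUSG00000026864) encodes BiP, the Hsp70 chaperone of the ER lumen, which holds the stress sensors inactive. It stood at 546, 469 and 485 CPM in shSQLE replicates 1, 2 and 5 and at 825, 511 and 394 CPM in shControl replicates 1, 4 and 5. The shControl libraries spanned the whole shSQLE range, with the highest and the lowest of the 6 values both among them. Means were 499.9 ± 40.4 CPM in shSQLE and 577 ± 223 CPM in shControl (SD, n = 3 each), and the log2 fold change was -0.21 (SE 0.29). Without shControl replicate 1 it was 0.14, in the other direction.

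Hsp90b1 (ENSMUSG00000020048) encodes GRP94, the Hsp90 chaperone of the ER, which folds integrins and Toll-like receptors among other clients. Its values were 851, 875 and 734 CPM in shSQLE replicates 1, 2 and 5, against 1050.2, 716 and 769 CPM in shControl replicates 1, 4 and 5. Only shControl replicate 1 lay above the shSQLE libraries. The log2 fold change of -0.04 (SE 0.24) became 0.15 when shControl replicate 1 was left out and 0.04 when shSQLE replicate 5 was. Expected counts of Hsp90b1 were not whole, which is how RSEM records reads that also match other loci, and it was the single gene of the 10 for which this held.

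Calr (ENSMUSG00000003814) encodes calreticulin, a calcium-binding lectin chaperone for glycoproteins that also serves the loading of MHC class I molecules. Levels of 803, 922 and 635 CPM were found in shSQLE replicates 1, 2 and 5 and of 715, 653 and 769.6 CPM in shControl replicates 1, 4 and 5. Here the shSQLE libraries were the wider group and held both extremes. The log2 fold change was 0.14 (SE 0.23), and 0.016 without shSQLE replicate 2.

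Pdia4 (ENSMUSG00000025823) encodes ERp72, a protein disulfide isomerase. It had 267, 271 and 199 CPM in shSQLE replicates 1, 2 and 5, against 287, 173 and 192 CPM in shControl replicates 1, 4 and 5. In each group the libraries were split, with replicate 5 low in shSQLE and replicates 4 and 5 low in shControl. The log2 fold change was 0.18 (SE 0.25), with 0.041 without shControl replicate 4 and 0.43 without shControl replicate 1.

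Dnajb9 (ENSMUSG00000014905) encodes ERdj4, a J-domain co-chaperone of BiP that represses IRE1 and is itself induced by XBP1. It was by far the lowest of the 10, at 9.13, 13.6 and 10.9 CPM in shSQLE replicates 1, 2 and 5 and 19.7, 8.32 and 9.34 CPM in shControl replicates 1, 4 and 5. The shControl libraries again held both the highest and the lowest value. Its counts, from 141 in the lowest library upward, were the smallest of the 10 genes. The log2 fold change was -0.15 (SE 0.36), and 0.34 without shControl replicate 1.

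Sdf2l1 (ENSMUSG00000022769) encodes an ER-resident protein that works with BiP and its J-domain partners, and its log2 fold change was 0.28 (SE 0.24), or 0.095 without shSQLE replicate 1 and 0.50 without shSQLE replicate 2. Values were 126, 68.3 and 108 CPM in shSQLE replicates 1, 2 and 5, against 86.3, 84.2 and 77.9 CPM in shControl replicates 1, 4 and 5. The shControl libraries lay close together, whereas shSQLE held the highest and the lowest of the 6 values. Group means were 101 ± 29.6 CPM in shSQLE and 82.8 ± 4.37 CPM in shControl (SD, n = 3 each).

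Manf (ENSMUSG00000032575) and Creld2 (ENSMUSG00000023272) encode small stress-induced proteins of the ER that are in part secreted. Manf stood at 249, 177 and 225 CPM in shSQLE replicates 1, 2 and 5 and at 204, 248 and 173 CPM in shControl replicates 1, 4 and 5. Creld2 stood at 129, 74.8 and 97.2 CPM in shSQLE replicates 1, 2 and 5 and at 93.6, 110.3 and 76.2 CPM in shControl replicates 1, 4 and 5. Both were highest in shSQLE replicate 1, and shControl replicate 5 and shSQLE replicate 2 were the 2 lowest libraries for each. The log2 fold changes were 0.06 (SE 0.22) for Manf and 0.10 (SE 0.25) for Creld2. Both turned without shSQLE replicate 1, to -0.05 and -0.12, and without shControl replicate 5, to -0.06 and -0.02.

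Herpud1 (ENSMUSG00000031770) encodes an ER membrane protein with a ubiquitin-like domain that organises the ERAD machinery. It had 87.1, 87.8 and 64.4 CPM in shSQLE replicates 1, 2 and 5, against 75.4, 63.5 and 64.4 CPM in shControl replicates 1, 4 and 5. Replicates 1 and 2 of shSQLE lay above every shControl library and replicate 5 lay among them. The log2 fold change of 0.23 (SE 0.19) had the smallest p of the 10 genes, 0.26 before adjustment in edgeR.

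Xbp1 (ENSMUSG00000020484) itself had 105, 121 and 107 CPM in shSQLE replicates 1, 2 and 5 and 90.9, 107 and 95.1 CPM in shControl replicates 1, 4 and 5. The overlap rested on 1 library, since shControl replicate 4 exceeded shSQLE replicate 1 by a narrow margin. Means were 111 ± 8.51 CPM in shSQLE and 97.6 ± 8.27 CPM in shControl (SD, n = 3 each), with a log2 fold change of 0.19 (SE 0.17). It varied least of the 10 genes over the 6 libraries, by 1.33-fold between lowest and highest, while Dnajb9 varied most, by 2.37-fold. Plasma cells express much Xbp1, and their 9 markers summed to 41.9 to 71.9 CPM in shSQLE and 45.5 to 66.7 CPM in shControl, with 5 of 9 tested. Sdc1, which other cells also express, made up the larger share in most libraries, at 33.4 to 44.1 CPM. The immunoglobulin gene Igkc had 5.41, 12.9 and 22.1 CPM in shSQLE replicates 1, 2 and 5 and 5.66, 2.95 and 20.9 CPM in shControl replicates 1, 4 and 5, and Ighm reached at most 7.05 CPM. Mzb1 reached at most 0.492 CPM in a library, and Tnfrsf17 was at 0 in 4 of 6 libraries, 1 of shSQLE and 3 of shControl. The part of these cells in the level of Xbp1 was not tested.

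For a single gene, the exact two-sided permutation test over the 6 libraries gave p between 0.2 (Xbp1) and 0.9 (Hsp90b1 and Dnajb9) for the 10 genes, where 0.1 is the smallest that 3 libraries against 3 allow.

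**Figure D2:**
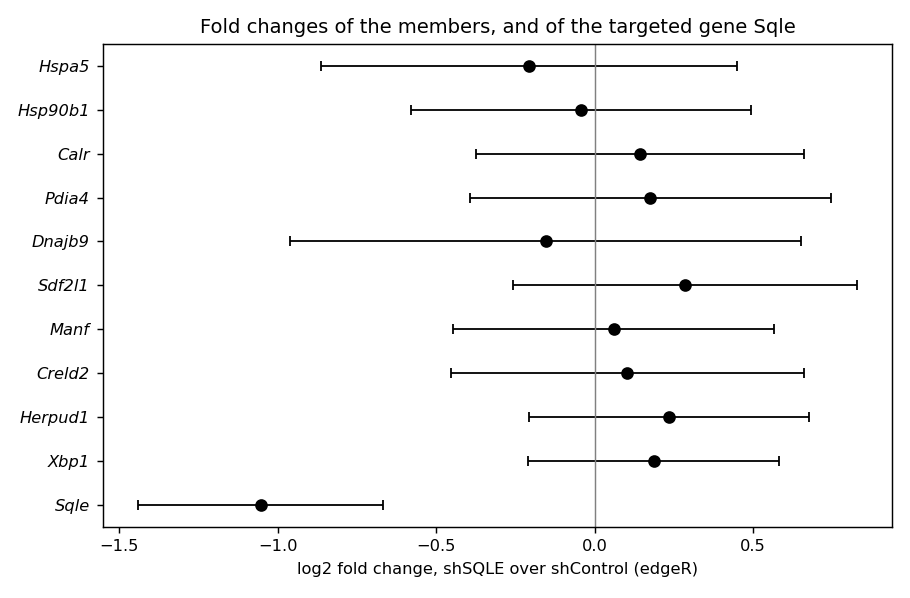
Log2 fold change of shSQLE over shControl by edgeR for the 10 genes and, in the bottom row, for Sqle, the target of the hairpin; horizontal bars are 95% confidence intervals. All 10 intervals hold 0, and that of Sqle runs from -1.44 to -0.67.

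Levels of different genes were compared per length, in TPM, computed from the expected counts and the deposited effective lengths. Calr averaged 431 ± 102 TPM over the 6 libraries, Manf 424 ± 44.7, Hsp90b1 392 ± 105 and Hspa5 341 ± 130 TPM (SD, n = 6 each). The first 3 did not separate, since Calr exceeded Manf in 2 of 6 libraries and Manf exceeded Hsp90b1 in 3 of 6. Hspa5 lay below Hsp90b1 in 5 of 6 libraries, all but shControl replicate 1. A clear step followed, since Hspa5 exceeded Pdia4, at 117 ± 36.4 TPM, in 6 of 6 libraries. Pdia4 exceeded Sdf2l1, at 110.1 ± 17.8 TPM, in 3 of 6 libraries. Creld2 at 90.1 ± 13.4 TPM, Xbp1 at 62.3 ± 10.5 TPM and Herpud1 at 50.4 ± 11.9 TPM came next, and Dnajb9 stood apart at 5.90 ± 2.90 TPM, below Herpud1 in all 6 libraries. With the full length in place of the effective length Manf moved to the fourth place, behind Hsp90b1 and Hspa5, and no other gene changed its order.

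The 10 genes did not move as one block over the tumours. Hspa5, Hsp90b1, Pdia4 and Dnajb9 were highest in shControl replicate 1, and for these 4 the shControl range held the whole shSQLE range. Manf, Creld2 and Sdf2l1 were highest in shSQLE replicate 1, and Calr, Herpud1 and Xbp1 in shSQLE replicate 2. Relative to their own means over the 6 libraries, Dnajb9 was higher by 0.80 and Hspa5 by 0.66 log2 units in shControl replicate 1, whereas Xbp1 there was at -0.19, its lowest value. In shSQLE replicate 2 Sdf2l1 was at -0.40 and Creld2 at -0.35, while Calr was at 0.31. None of the 10 was highest in shSQLE replicate 5, shControl replicate 4 or shControl replicate 5.

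Gene length moved with this division and is given beside it. Over all tested genes, the median deviation of the 1443 genes up to 1000 bases was -0.41 log2 units in shSQLE replicate 2 and 0.17 and 0.25 in shSQLE replicates 1 and 5. In shControl replicates 1, 4 and 5 it was -0.18, 0.27 and -0.04. The 2590 genes over 4000 bases were at 0.16 in shSQLE replicate 2, 0.42 in shControl replicate 1 and -0.19 to -0.077 in the other 4 libraries. The sign was opposite to that of the short genes in all libraries but shControl replicate 5, which was below 0 in both classes. Manf, Sdf2l1 and Creld2 are the 3 shortest of the 10, at 758, 1108 and 1366 bases, and the others run from 1815 to 2547 bases. The part of length in the levels of the 10 genes was not tested beyond the comparison that follows.

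**Figure D3:**
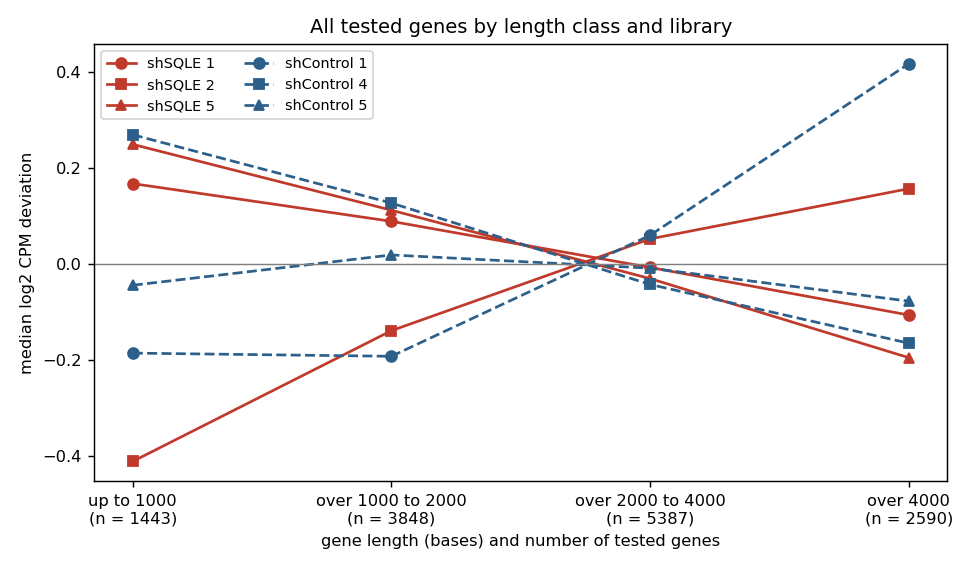
Median deviation of log2 CPM from the gene's mean over 6 libraries (vertical axis) in 4 classes of gene length in bases (horizontal axis), over all 13268 tested genes; solid red lines are shSQLE libraries and dashed blue lines shControl libraries. Short genes are low and long genes high in shSQLE replicate 2 and shControl replicate 1, and libraries of both groups lie on either side of 0.

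With a smooth length curve removed from each library, an alternative added after seeing the data, part of the division changed. Manf, Creld2 and Sdf2l1 remained highest in shSQLE replicate 1, at 0.16, 0.43 and 0.45 log2 units above their means. All 3 were then lowest in shControl replicate 5, where Manf alone had been lowest before, and Manf in shSQLE replicate 2 was at 0.13 where it had been at -0.25. Hspa5 in shControl replicate 1 was at 0.72 and Dnajb9 at 0.77, close to their values without the curve. With the curve removed, 7 of the 10 genes were lowest in shControl replicate 5, where 2 had been before. The fold changes kept their directions with the curve as an offset in edgeR, with 0.20 for Pdia4, 0.26 for Sdf2l1, 0.25 for Herpud1 and 0.20 for Xbp1, and 0 genes were called over all genes (552 at an unadjusted p under 0.05).

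**Figure D4:**
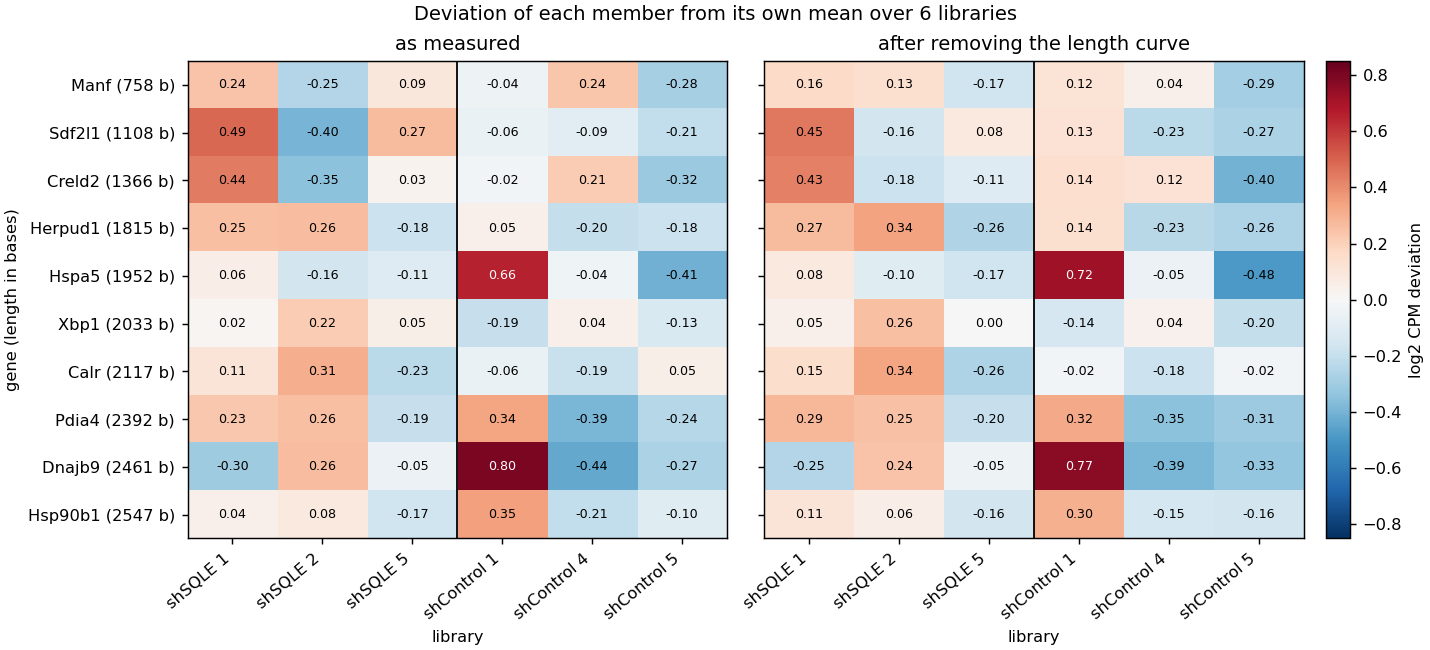
Deviation of log2 CPM of each gene (rows, ordered by length in bases) from its own mean in each library (columns, shSQLE left of the line), as measured on the left and with the length curve removed on the right; red is above and blue below the mean. Hspa5 and Dnajb9 stand out in shControl replicate 1 in both panels, and Sdf2l1 and Creld2 in shSQLE replicate 1.

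Markers of host cells differed between the same libraries. Endothelial markers, 8 of 8 tested, summed to 52.3 to 77.1 CPM in shSQLE and 42.7 to 143 CPM in shControl, with the highest sum in shControl replicate 1. Fibroblast markers (9 of 10 tested) summed to 63.0 to 419 CPM in shSQLE and 143 to 549 CPM in shControl, also highest in shControl replicate 1. Macrophage markers (12 of 12) summed to 66.4 to 349 CPM in shSQLE and 127 to 427 CPM in shControl. In shSQLE replicates 1, 2 and 5, skeletal muscle markers (9 of 10) summed to 34.2, 81.8 and 1654 CPM. In shControl replicates 1, 4 and 5 they summed to 15.6, 176 and 17.1 CPM. Only in shSQLE replicate 5 did the muscle sum exceed every shControl sum. Adipocyte markers (5 of 8) summed to 20.6, 24.3 and 34.6 CPM in those shSQLE libraries and 103, 21.6 and 338 CPM in those shControl libraries. The adipocyte sum of shControl replicate 4 thus lay within the shSQLE range. In shSQLE the fitted level was lower for 8 of 8 endothelial and 9 of 9 fibroblast markers tested. It was also lower for 11 of 12 macrophage and 5 of 5 adipocyte markers, and higher for 9 of 9 muscle markers. Of all 13268 tested genes, 6982 were lower and 6286 higher. Markers of a tissue vary together, so these counts are not separate observations, and the groups overlapped for every tested marker of the 5 lists. No marker of these lists was called by edgeR. At an unadjusted p under 0.05 there were 5 of 5 adipocyte, 1 endothelial and 1 fibroblast markers, all lower, against 1.62% of all genes in that direction. No defining marker of these 5 lists was at 0 in every library, and their part in the levels of the 10 genes was not tested.

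The profile of Hspa5 over the 6 libraries was closest to that of genes outside the ER lists. The 3 of 13258 other tested genes with the highest Pearson r of log2 CPM were Slk (r = 0.995, Spearman rho = 0.943), Arhgap12 (r = 0.995, rho = 1) and Socs7 (r = 0.993, rho = 0.943), over 6 libraries. All 3 were highest in shControl replicate 1 and lowest in shControl replicate 5, as Hspa5 was. Their lengths of 7278, 3487 and 7048 bases exceed that of Hspa5. Among the 10 genes r with Hspa5 ran from -0.44 (Xbp1) to 0.77 (Hsp90b1). These values describe the profiles only, since the 3 genes were picked as the highest and all values share the same libraries.

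Other genes of the ER folding system, taken from lists of known members, also did not pass the test. Of 18 further ER chaperones and folding enzymes, 6 had a higher and 12 a lower level in shSQLE. Their median log2 fold change was -0.11, beside -0.02 over all tested genes and 0.12 for the 10 genes. The oxidase gene Ero1a, which reoxidises disulfide isomerases and is also induced by hypoxia, had the smallest p. It stood at 189, 186 and 118 CPM in shSQLE replicates 1, 2 and 5 and at 376, 189.8 and 193 CPM in shControl replicates 1, 4 and 5. The groups did not overlap, though by a narrow margin, as was so for 6.44% of all tested genes. The log2 fold change of -0.62 (SE 0.32) was -0.22 without shControl replicate 1. Erp29, an ER protein related to disulfide isomerases, followed with -0.32 (SE 0.26), and its expected counts were not whole.

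Of 20 genes for ERAD, protein translocation and other XBP1 targets, 19 were tested, Derl3 being too low, and 9 had a higher and 10 a lower level in shSQLE, with a median of -0.03. Sec24d, a coat protein of vesicles that leave the ER, had 23.2, 42.7 and 41.4 CPM in shSQLE replicates 1, 2 and 5 and 37.1, 18.4 and 18.7 CPM in shControl replicates 1, 4 and 5. In each group replicate 1 lay with the other group, and the log2 fold change was 0.53 (SE 0.34). Derl2, an ERAD channel component whose expected counts were not whole, was at -0.36 (SE 0.22).

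The sensors and the proteases that cut ATF6 form a list of 6, of which 4 lay above 0 and 2 below, with a median of 0.01. Mbtps1, the site-1 protease that makes the first cut in ATF6 and also in SREBP, had 70.9, 86.1 and 71.7 CPM in shSQLE replicates 1, 2 and 5 and 69.9, 52.9 and 56.5 CPM in shControl replicates 1, 4 and 5. The groups did not overlap, as for 6.44% of all tested genes, and the log2 fold change was 0.35 (SE 0.19). Atf6b, a relative of ATF6, was at 0.13 (SE 0.17).

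In the PERK and ATF4 arm, which lowers translation and induces amino acid and stress genes, 6 of 10 genes lay above 0 and 4 below, and the median was 0.04. Asns, asparagine synthetase, was the 1 gene of the 5 lists with an unadjusted p under 0.05, against 3.11% of all tested genes. The lists held 18, 19, 6, 10 and 12 tested genes, and Asns is described because its p was small. It had 217, 289 and 343 CPM in shSQLE replicates 1, 2 and 5 and 170.0, 172 and 167 CPM in shControl replicates 1, 4 and 5, with a log2 fold change of 0.74 (SE 0.22). Every shSQLE library lay above every shControl library, where groups did not overlap for 6.44% of all tested genes. The unadjusted p of Asns, 0.00826 in edgeR, became an adjusted p of 0.9996. Ppp1r15a, which encodes the phosphatase subunit GADD34, was at -0.30 (SE 0.26).

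Cytosolic and mitochondrial chaperones, which lie outside the ER, had a median of 0.04, with 8 of 12 genes above 0 and 4 below. Hsph1, a nucleotide exchange factor of Hsp70, had 61.6, 103 and 58.9 CPM in shSQLE replicates 1, 2 and 5 and 59.9, 52.6 and 46.5 CPM in shControl replicates 1, 4 and 5. Its log2 fold change of 0.49 (SE 0.25) was 0.19 without shSQLE replicate 2, the library with the highest value. Hspa1b, a heat-inducible Hsp70 with the near-identical copy Hspa1a, was at 0.63 (SE 0.43). Its expected counts were whole, whereas those of Hspa1a were not. How reads matching both copies were assigned was not tested. In all 5 lists 0 genes were called by edgeR or by DESeq2. Groups did not overlap for 1 of 18 further ER folding genes, 0 of 19 ERAD-list genes and 1 of 6 sensors and proteases. They did not overlap for 1 of 10 PERK and ATF4 genes and 1 of 12 chaperones outside the ER. The share over all tested genes was 6.44%, and the genes named from the lists were picked by their p.

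**Figure D5:**
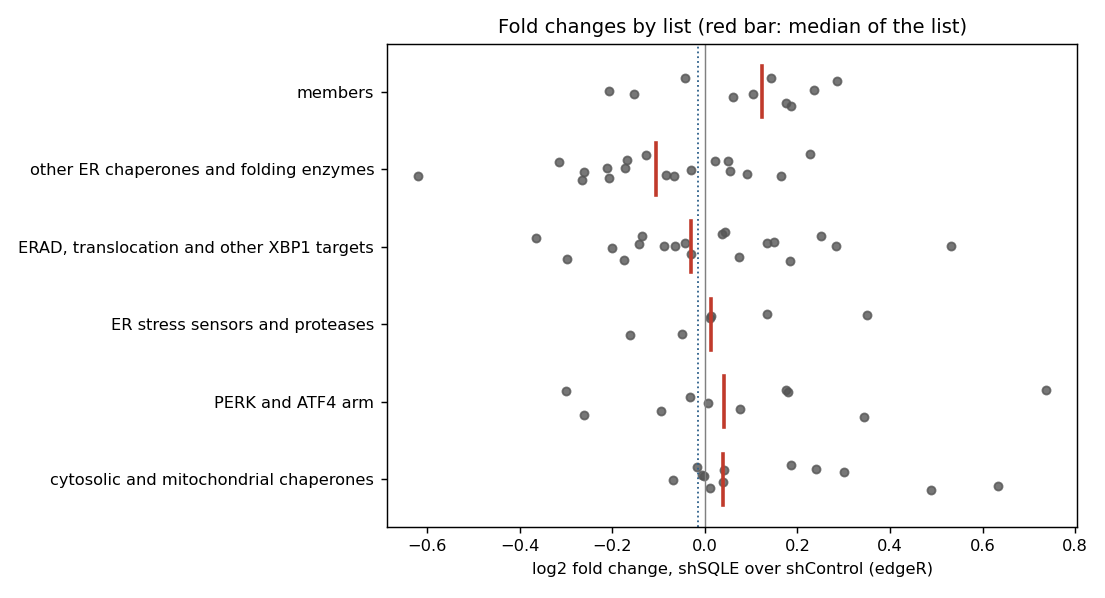
Log2 fold change of shSQLE over shControl by edgeR (horizontal axis) for each tested gene of the 10 members and the 5 further lists (rows; height within a row is random); red bars are list medians and the dotted blue line is the median of all 13268 tested genes, -0.02. Medians of all rows lie between -0.11 and 0.12, and the rightmost point is Asns at 0.74.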

How the data were processed

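RNA was sequenced from 6 subcutaneous B16F10 tumours, 3 shSQLE and 3 shControl, grouped by their titles. The authors deposited 1 table of expected counts per gene with lengths and effective lengths; per the submitters' processing notes the tools were STAR and RSEM with FastQC and DESeq2, on build GRCm39, with no versions named. Annotation release and strand setting are not stated, so reads of overlapping or antisense genes may be shared. Per library, 11.4% to 12.7% of the nonzero deposited values were fractional. No 2 libraries agreed within sampling noise.

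Expected counts were rounded and filtered with filterByExpr (minimum count 10, minimum total 15), leaving 13268 genes. Group was tested with edgeR 4.0.16 (R 4.3.3; TMM, factors 0.928 to 1.12, glmQLFit with robust=TRUE, glmQLFTest), Benjamini-Hochberg adjustment over all genes and a threshold of 0.05. SE is the fold change over the square root of F. Log2 CPM used a prior count of 2. DESeq2 1.42.0 ran on the same genes and left 21 adjusted p missing. The scripts were checked on simulated counts of 13039 genes, where 100 were changed 2-fold and 100 were changed 4-fold. At the same threshold edgeR recovered 18% of the 2-fold and 95% of the 4-fold changes, with 13 false calls. TPM is expected count over effective length, scaled to the same sum in every library. Of 55349 genes, 1337 had no symbol.

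The members and gene lists were chosen with earlier results of these data known. Named genes are the 10 members, Sqle, the 2 genes of each pathway list with the smallest p and the 3 most like Hspa5. The plasma cell markers Sdc1, Igkc, Ighm, Mzb1 and Tnfrsf17 were named after their values were seen. Alternatives were other scalings, filters and tests (limma 3.58.1), a replicate block, each library left out, and a length offset. Figures used matplotlib 3.10.9 in Python 3.11.15.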

Additional observations from a re-analysis of the deposited data

How the results depend on the processing

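Under every alternative run, 0 of the 10 genes and 0 genes of the 5 further lists were called, the adjusted p threshold of 0.1 included. Over all genes, 0 were called by edgeR, DESeq2 called 6 (4 higher, 2 lower), the replicate block 41 (5 higher, 36 lower), and leaving out a library 0 to 31 (0 to 21 higher, 0 to 10 lower), the highest without shSQLE replicate 1. The block rests on the numbers 1 and 5 that both groups share; deviations of same-numbered libraries had r of -0.13 and 0.07 over 13268 genes, so the numbers were not taken to pair the tumours, and with it the ERAD list had a median of 0.18, Pdia4 -0.027 and Calr -0.054. The cause of these differences was not tested.

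The median of the 10 genes, 0.12, stayed between 0.04 and 0.17 without any one library, and the number above 0 was 5 without shSQLE replicate 1 and 10 without shControl replicate 1. Without one library the ranges of genes that turned were -0.42 to 0.14 for Hspa5, -0.15 to 0.15 for Hsp90b1, -0.37 to 0.34 for Dnajb9, -0.057 to 0.21 for Manf, -0.12 to 0.28 for Creld2, -0.38 to 0.12 for Slk, -0.44 to 0.23 for Arhgap12 and -0.42 to 0.25 for Socs7, and the list medians ran from -0.14 to 0.35 (PERK and ATF4), -0.20 to 0.25 (sensors and proteases), -0.14 to 0.090 (ERAD), -0.23 to -0.014 (other ER chaperones) and 0.031 to 0.13 (chaperones outside the ER). Genes that kept their sign ranged from 0.016 to 0.28 (Calr), 0.041 to 0.43 (Pdia4), 0.095 to 0.50 (Sdf2l1), 0.16 to 0.37 (Herpud1), 0.12 to 0.26 (Xbp1), -0.79 to -0.22 (Ero1a), -0.63 to -0.098 (Erp29), -0.53 to -0.22 (Derl2), 0.36 to 0.95 (Sec24d), 0.26 to 0.48 (Mbtps1), 0.097 to 0.21 (Atf6b), 0.58 to 0.90 (Asns), -0.49 to -0.10 (Ppp1r15a), 0.19 to 0.65 (Hsph1) and 0.28 to 1.23 (Hspa1b). Voom with quality weights turned Hspa5 (0.059), Hsp90b1 (0.041), Dnajb9 (0.10), Slk (0.034), Arhgap12 (0.13) and Socs7 (0.14). Library size alone, which shifted the median of all genes by -0.06, turned Manf (-0.0087), and the length offset turned Slk (0.037) and Socs7 (0.067). The intervals are no detection limits, since edgeR with 3 libraries a group did not call Sqle either, at 48.2% of the control level.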
